A study of Drosophila melanogaster with 4 samples.

Results

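Glutamate is the transmitter of the fly neuromuscular junction and of many central neurons. After release it is cleared by excitatory amino acid transporters in the plasma membrane, and glutamine synthetase joins it to ammonia to give glutamine. These steps take place to a large extent in glia, and in the cycle as worked out in mammals the glutamine returns to neurons as a source of new glutamate. Gs1 and Eaat2, genes of this cycle, are described here across 4 arrays of adult fly heads. Gs1 (Dmel_CG2718) codes for the mitochondrial glutamine synthetase of Drosophila, next to the cytosolic enzyme of Gs2. Eaat2 (Dmel_CG3159) codes for a sodium-dependent transporter that, in transport studies of the fly protein, preferred aspartate over glutamate.

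These 2 genes were taken from the 6793 genes that the platform annotation names by a single symbol. They were chosen with their ratios on these same arrays known, so their values are a description and carry no test. Each is represented by 1 feature, a pair of neighbouring spots of the same cDNA. Both spots of both genes gave a value on all 4 arrays, which held for 2940 of the 13824 features, or 21.3%.

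The flies were unmated adult males of the wild-type strain Oregon-R, and only their heads were used. The treated group ate food containing levetiracetam at 5 mg/ml during 3 days, and the control group ate normal food over the same days. Levetiracetam is given against epilepsy, and its target in mammals is SV2A, a protein of synaptic vesicles. Both groups had 7 days on normal food beforehand, 30 flies to a vial, while the age reads 3 to 4 days in the labels of most channels but 7 to 10 days for the flies put on the food in the design text. The labels also give a shorter time in vials for the control flies of replicate 1 and the treated flies of replicate 4 than for the other channels. The 8 pools of heads made up 4 sets, and the treated and control pool of a set shared a spotted cDNA array (n = 4 biological replicates). The drug channel was Cy5 on the first pair of arrays (replicates 1 and 2) and Cy3 on the dye-swapped pair (replicates 3 and 4).

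Values are log2 ratios, and a value above 0 means more transcript with levetiracetam. This direction is an assumption and is not settled. The deposited ratio was read as Cy5 over Cy3, and its sign was turned for replicates 3 and 4. The sources used here do not say whether the authors had already turned it. The values as deposited are therefore given beside the turned ones for both genes and for the means of the pathway and marker genes. The arrays gave a value for 29.1% to 45.6% of 27648 spots, and their medians after turning were -0.15, -0.16, 0.08 and 0.31 in replicates 1 to 4. Intensities were not used here, so a ratio is given without a level. Of the photoreceptor and neuron markers, Arr1, inaD and the synaptic gene nSyb had a value on all 4 arrays. Their means were 0.22, 0.15 and -0.03 (-0.01, -0.02 and -0.35 as deposited). The fat body marker apolpp and the muscle markers Act88F and Zasp66 had means of -0.33, 0.12 and 0.65 (-0.30, 0.08 and -0.76 as deposited). Zasp66 stood at 2.43 in replicate 3. Lsp2 of fat body and Mlc2 of muscle, on 3 arrays, had means of 0.05 and -0.14. These were 0.12 and -0.07 with both dye orientations weighted equally, and -0.16 and -0.25 as deposited.

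Gs1 stood above 0 on 3 of the 4 arrays. Its log2 ratio was 0.16 in replicate 1, -0.29 in replicate 2, 1.26 in replicate 3 and 0.62 in replicate 4. Replicate 3 was the highest, at 2.40-fold more transcript with the drug, and replicate 2 the only array below 0, at 0.816-fold. The mean was 0.44 ± 0.66 (SD, n = 4), or 1.35-fold, and so lay within 1 SD of 0. For scale, 32.6% of the 2870 rows with a value on all 4 arrays were above 0 on at least 3 of them. A row is a gene, or a feature where the annotation gives no single symbol. Of the 3853 rows on at least 3 arrays, 121 (3.14%) had a higher mean than Gs1.

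Eaat2 stood above 0 only on the swapped arrays. Its log2 ratio was -0.17 in replicate 1, -0.03 in replicate 2, 0.53 in replicate 3 and 0.70 in replicate 4. The mean was 0.26 ± 0.42 (SD, n = 4), or 1.20-fold, again within 1 SD of 0. Of the tested rows, 422 (11.0%) had a higher mean. The spread of Gs1 over arrays was wide, since only 11.0% of rows had a larger SD, while 35.5% had a larger SD than Eaat2.

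**Figure D1:**
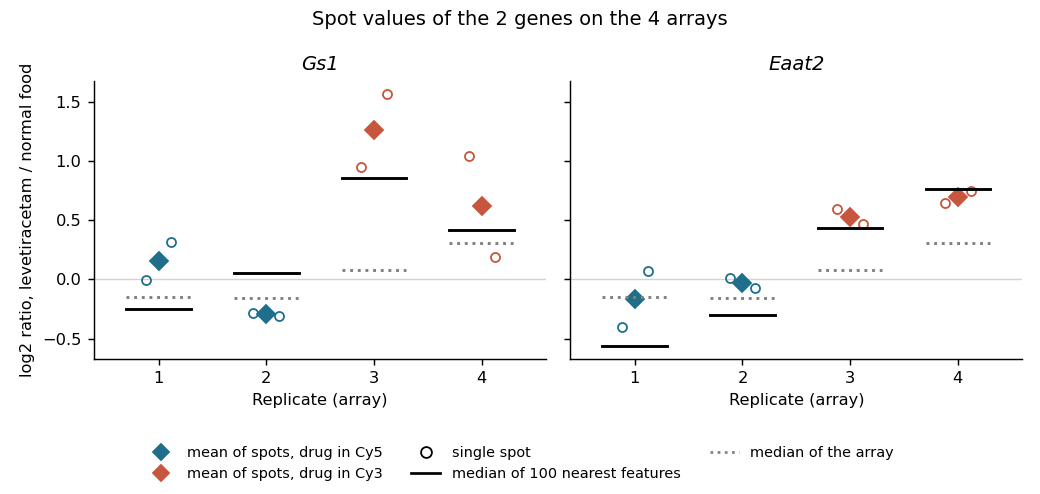
Log2 ratio of levetiracetam over normal food (vertical axis) of Gs1 and Eaat2 on each of the 4 arrays (horizontal axis). Open circles are single spots, diamonds their mean, black lines the median of the 100 features nearest by number and dotted lines the median of the array. Both genes lie highest on replicates 3 and 4, where the black lines are also high, at 0.86 beside Gs1 in replicate 3 and 0.77 beside Eaat2 in replicate 4.

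The spots of a pair show how far a single ratio can be read. The spots of Gs1 differed by 0.32, 0.03, 0.62 and 0.86 on the log2 scale in replicates 1 to 4, where the median difference over all features lay between 0.23 and 0.29. In replicate 4 the spots of Gs1 stood at 1.05 and 0.19, and 15.3% of features on that array had a larger difference. In replicate 3 they stood at 0.95 and 1.57, so both spots were high there. The spots of Eaat2 differed by 0.47 in replicate 1 and by 0.09 to 0.13 on the other arrays. In replicate 1 they lay on both sides of 0, at -0.40 and 0.07. The 2 genes thus differ in the kind of scatter they show: Eaat2 had close spots on the swapped arrays, and Gs1 had its widest pairs there.

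The dye orientation split both genes. With levetiracetam in Cy5 the mean of Gs1 was -0.07 (replicates 1 and 2), and with levetiracetam in Cy3 it was 0.94 (replicates 3 and 4). For Eaat2 these means were -0.10 and 0.61. The higher ratios therefore came from the swapped arrays, and the orientations differed by 1.01 for Gs1 and 0.71 for Eaat2. Both genes were above 0 on both swapped arrays, as were 49.9% of the 2870 rows on all 4 arrays. In both, the lower of the swapped arrays lay above the higher of the others, which was so for 47.0% of these rows. With each array centred on its median it was still so for both genes, and for 19.6% of rows. For Gs1 this was nearly a tie, at 0.30 in replicate 1 and 0.31 in replicate 4. Centred, the means were 0.42 ± 0.55 for Gs1 and 0.24 ± 0.22 for Eaat2 (SD, n = 4), and both genes were above 0 on 3 arrays, where 30.2% of rows were above 0 on at least 3. Within either orientation there are only 2 arrays, and the orientations weigh equally in the means of Gs1 and Eaat2, which have all 4 arrays.

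As deposited, without turning, the same values read the other way. The mean of Gs1 was then -0.50 ± 0.60 (SD, n = 4), with 3 arrays below 0, where 60.0% of rows were below 0 on at least 3. That of Eaat2 was -0.36 ± 0.31. Eaat2 was thus below 0 on all 4 arrays as deposited, and so were 25.5% of rows on all 4 arrays. Under this reading 360 of the tested rows (9.34%) had a lower mean than Gs1, and 830 (21.5%) a lower mean than Eaat2. The sign of both genes thus rests on how the deposited ratio is read.

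**Figure D2:**
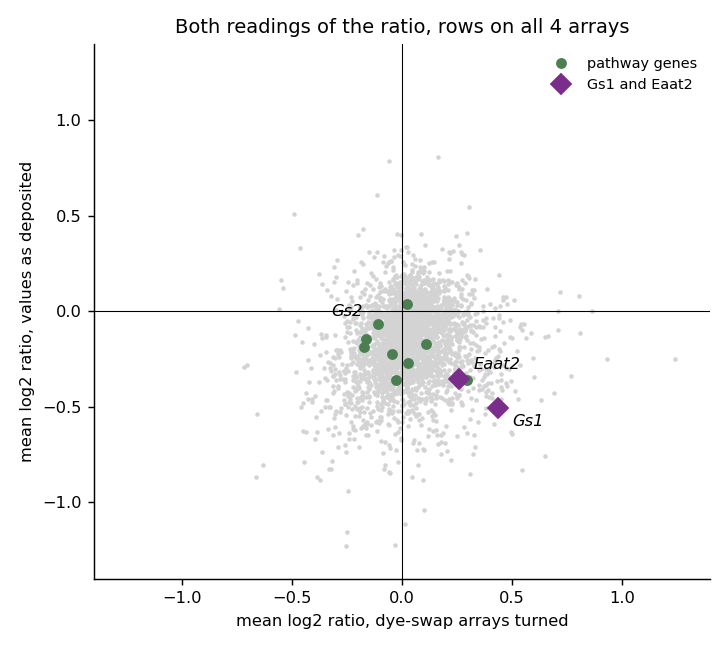
Mean log2 ratio with the dye-swapped arrays turned (horizontal axis) against the mean of the values as deposited (vertical axis) for the 2870 rows with a value on all 4 arrays. Grey points are rows, green circles pathway genes and purple diamonds Gs1 and Eaat2, which lie right of 0 and below 0, at 0.44 and -0.50 for Gs1 and at 0.26 and -0.36 for Eaat2.

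The ratios of both genes also went with those of features near them in number, that is, in the order of the deposited table. The sources used here do not say where on the slide a feature number lies, so nearness in number need not be nearness on the slide. Around Gs1 the median of the 100 nearest features was -0.25, 0.05, 0.86 and 0.41 in replicates 1 to 4. In replicate 3, where Gs1 was highest, 95.1% of the 41 window features with a value were above 0, and only 0.746% of features on that array had a higher local median. Even so, Gs1 was exceeded by only 4 of these 41. In replicate 2, where Gs1 was below 0, the window was not, and 46 of its 57 features with a value were higher than Gs1.

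Around Eaat2 the local median was -0.56, -0.30, 0.43 and 0.77. In replicate 4 all 13 window features with a value (100.0%) were above 0 and 9 of them were higher than Eaat2. The median of that array was 0.31, and 3.02% of its features had a higher local median. With the local median taken away, Eaat2 was 0.40, 0.27, 0.10 and -0.07 in replicates 1 to 4, so that its 2 highest arrays became the 2 lowest. Its mean was then 0.17 ± 0.20. Gs1 was 0.41, -0.34, 0.41 and 0.20, with a mean of 0.17 ± 0.36. This compares with a mean of 0.44 for Gs1 and 0.26 for Eaat2 before the step. Few features with a value lie near Eaat2, between 10 and 33 an array, so its local median is less exact than that of Gs1, with 41 to 83.

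**Figure D3:**
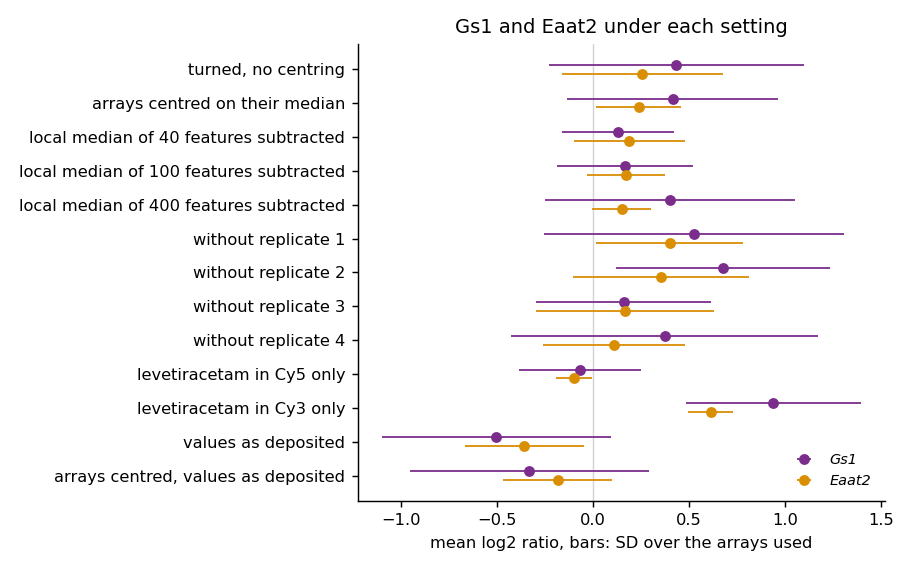
Mean log2 ratio of Gs1 (purple) and Eaat2 (orange) on the horizontal axis under each setting (vertical axis), with bars for the SD over the arrays used. Both means are above 0 in every setting with turned arrays other than replicates 1 and 2 alone (-0.07 and -0.10), and below 0 as deposited (-0.50 and -0.36).

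No single array decided the sign of either gene, though it changed the size. Without replicate 3 the mean of Gs1 was 0.16, and without replicate 2 it was 0.68. The mean of Eaat2 was 0.11 without replicate 4, 0.17 without replicate 3 and 0.40 without replicate 1. Gs1 lay above Eaat2 on 2 of 4 arrays, with a mean difference of 0.18 ± 0.44, so the genes could not be put in order.

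Gs2, the cytosolic glutamine synthetase and a glial marker, gave the closest comparison for Gs1. Its log2 ratio was -0.37 in replicate 1, 0.02 in replicate 2, -0.06 in replicate 3 and -0.03 in replicate 4. It stayed near 0 on the 2 swapped arrays where Gs1 was high, while the medians of these arrays were 0.08 and 0.31. The mean of Gs2 was -0.11 ± 0.18 (SD, n = 4), with a limma adjusted p of 1.00. As deposited the mean of Gs2 was -0.06. With each turned array centred on its median, Gs2 was -0.22, 0.18, -0.14 and -0.33 in replicates 1 to 4. In replicate 4, 84.1% of rows were higher than Gs2, and in replicate 3, 68.3%. The difference Gs1 minus Gs2 was 0.55 ± 0.67 and above 0 on 3 of 4 arrays. Eaat1, the main glial glutamate transporter, had no feature under a single symbol and was not analysed here.

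Around the 2 genes, 57 other genes were listed in 7 groups of glutamate, glutamine and GABA biology. Of these, 33 had a feature on the array and 17 a value on at least 3 arrays. None of the 17 passed adjusted p 0.05 in limma's one-sample fit over all 3853 rows, in which 0 rows (0.0%) passed and 100 (2.60%) had an unadjusted p under 0.05. Of the 17, 1 had an unadjusted p under 0.05, and 8 had a mean above 0, where 57.2% of all rows did. Their median was -0.03, beside 0.03 over all rows. By array their medians were -0.28, -0.32, 0.06 and 0.46 in replicates 1 to 4, beside -0.14, -0.11, 0.07 and 0.29 over all rows. As deposited, 2 of the 17 were above 0, where 20.2% of all rows were, and their median was -0.27, beside -0.17. Of the 17 genes, 8 had only 3 arrays, so that 1 orientation counts for more in their means, and the mean with both orientations weighted equally is given for each of them. A second limma fit with dye orientation as a term called that term at adjusted p 0.05 in 44 of 3853 rows (1.14%), and in 0 of the 17.

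Enzymes that make or use glutamate lay on both sides of 0. Gdh, glutamate dehydrogenase, had values of 0.05, -0.53, 0.04 and 0.56 in replicates 1 to 4 and a mean of 0.03 ± 0.44 (SD, n = 4), or -0.27 as deposited. CG1640, an alanine aminotransferase, had a mean of 0.11 (-0.17 as deposited). P5CDh1, which turns pyrroline-5-carboxylate into glutamate, had a mean of -0.17 (-0.14 as deposited). The other 3 genes had no value in replicate 1. The proline dehydrogenase gene slgA had a mean of 0.30, which was 0.22 with equal weights and -0.29 as deposited. The glutamate synthase gene CG9674 stood at -0.61, 0.05 and 0.77 in replicates 2 to 4. Its mean of 0.07 became -0.10 with equal weights and was -0.48 as deposited, so it has no settled sign in either respect. Gclm, the modifier subunit of glutamate-cysteine ligase in glutathione synthesis, stood at -0.37, -0.29 and -0.40, with a mean of -0.35 ± 0.06 (n = 3) and -0.36 with equal weights. These close values arise with the sign turned, and as deposited they lie on both sides of 0 with a mean of 0.10. All of these genes had a limma adjusted p of 1.00.

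Enzymes that take their nitrogen from glutamine, the product of Gs1, lay on both sides of 0 as well. Pfas, an enzyme of purine synthesis, had values of 0.04, 0.66 and 0.89 in replicates 2 to 4. Its mean of 0.53 ± 0.44 (n = 3) was the highest of the 17 genes, with an unadjusted limma p of 0.0489 and an adjusted p of 1.00. With equal weights the mean of Pfas was 0.41, and as deposited it was -0.50. Prat, the first enzyme of the same pathway, had values of -0.47, -1.11 and 0.53 in replicates 1, 2 and 4. Its mean was -0.35 ± 0.82, or -0.13 with equal weights and -0.70 as deposited. Gfat1, which starts hexosamine synthesis, had a mean of -0.04 over replicates 2 to 4, -0.21 with equal weights and -0.43 as deposited. The CTP synthase gene Ctps, on all 4 arrays, had a mean of 0.02 (0.04 as deposited).

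Among transporters and receptors with a value on at least 3 arrays, the means were nearer to 0 than that of Gs1. This does not hold for all those on fewer arrays. JhI-21, an amino acid transporter, had a mean of 0.30 ± 0.63 (SD, n = 4), which was -0.01 without replicate 4, where it stood at 1.23, and -0.36 as deposited. The muscle glutamate receptor subunit GluRIIA had a mean of -0.18 ± 0.27 (-0.19 as deposited). The glutamate-gated chloride channel gene GluClalpha had values of -0.24, -0.30, 0.33 and 0.03 and a mean of -0.05 ± 0.29 (-0.22 as deposited). On the GABA side, Gad1, which turns glutamate into GABA, had values of -0.13, -0.65, 0.45 and 0.21 and a mean of -0.03 ± 0.47 (-0.36 as deposited). Like Eaat2, these 2 genes of the 9 pathway genes on all 4 arrays were below 0 on replicates 1 and 2 and above 0 on 3 and 4, which was so for 25.5% of all rows with 4 values. The GABA transaminase gene Gabat had a mean of 0.05, 0.01 with equal weights and -0.15 as deposited. The GABA receptor gene Lcch3 had a mean of -0.10, -0.28 with equal weights and -0.42 as deposited.

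**Figure D4:**
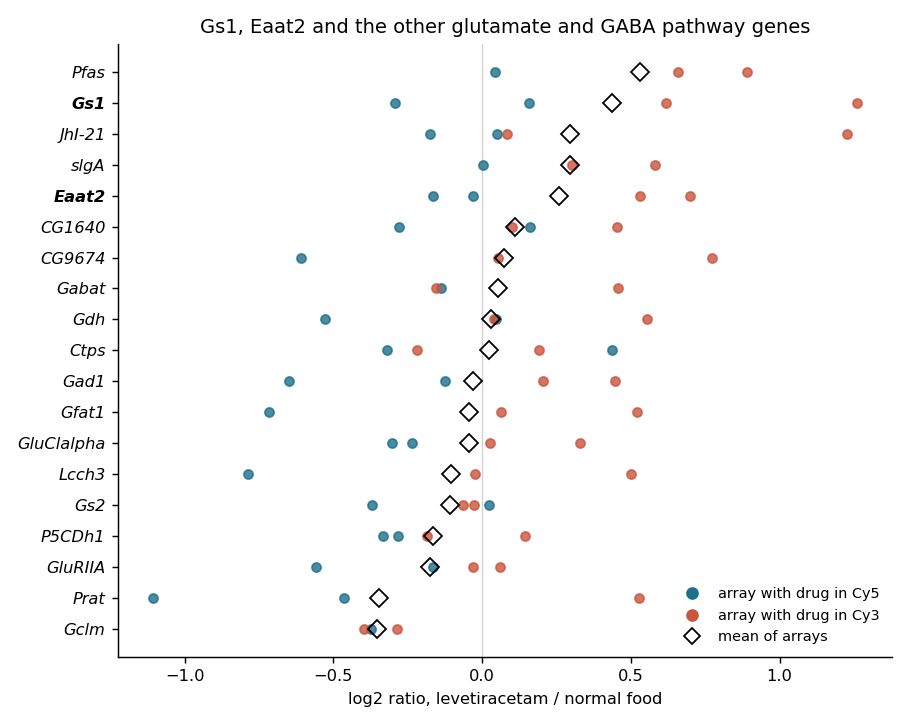
Log2 ratio of levetiracetam over normal food (horizontal axis) of Gs1, Eaat2 and the 17 other pathway genes with at least 3 values (vertical axis, ordered by mean). Circles are arrays, coloured by the dye of the drug RNA, and open diamonds are means, which run from -0.35 for Gclm to 0.53 for Pfas.

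Glial markers on at least 3 arrays had means below 0, while those on fewer arrays lay on both sides of 0. Of 12 glial markers listed, 10 had a feature, 7 a value on any array and 3 on at least 3 arrays. These 3 were moody, a receptor of the blood-brain barrier, at -0.21 ± 0.41 (SD, n = 3; -0.12 with equal weights), the engulfment receptor drpr at -0.24 ± 0.85 (n = 4), and Gs2 at -0.11 ± 0.18. As deposited they stood at -0.32, -0.64 and -0.06. Of all tested rows, only 20.2% had a mean above 0 in that reading, and 57.2% did with the arrays turned. The drpr mean was 0.14 without replicate 2, where it was -1.39. None of the 3 passed adjusted p 0.05 in limma, each with an adjusted p of 1.00. Of the other 4, Gli stood at 0.16 and -0.05 in replicates 1 and 2, and wrapper, loco and alrm had a value in replicate 2 alone, at 1.32, 0.29 and -0.87. The part of glial cells in the ratios of Gs1 and Eaat2 was not tested. In pooled heads, fewer cells of a type and less RNA per cell cannot be told apart.

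The genes whose ratios were most like those of the 2 genes came from 1632 genes with a value on all 4 arrays, ranked by the root mean square difference over these arrays. Nearest to Gs1 were CG18180 at 0.11, CG13216 at 0.20 and CG46441 at 0.22 on the log2 scale. CG46441 lies 34 features from Gs1 in number, CG18180 322 and CG13216 3839. CG46441 stood at 1.28 in replicate 3 and CG18180 at 1.15, beside 1.26 for Gs1. Nearest to Eaat2 were CG9812 at 0.10, CycC, the cyclin of the Mediator kinase module, at 0.11 and CG12316 at 0.13, which lie 3383, 5256 and 3178 features from Eaat2 in number. Gs1 and Eaat2 differed from each other by 0.42 in this measure. With this same difference, Eaat2 was 61st of 1631 genes in likeness to Gs1, and Gs1 795th in likeness to Eaat2.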

How the data were processed

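Each array was deposited as 1 column of log2 ratios between its channels. Per the labels' protocols, the authors quantified slides in GenePix Pro 6.0 and normalized by ratio in Acuity 4.0. They removed spots that were flagged, had 3% or more saturated pixels or a signal to noise below 2. Their settings also included an intensity minimum of 100 and a background multiple of 2. Nothing states the log base; it was inferred from the top value, 16.61, which is the log2 of 100000. Whether the authors centred the arrays is not given in the sources used here.

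The 27648 spots were averaged in neighbouring pairs to 13824 features, then over features of a gene. Symbols are those of the platform annotation, updated through gene IDs in RefSeq (Release 6 assembly, names only): 15116 spots had 1 symbol, of which 14894 matched, 102 had several and 12430 none. The sign of replicates 3 and 4 was turned. limma 3.58.1 (R 4.3.3) tested the mean of rows on at least 3 arrays against 0, two-sided, with Benjamini-Hochberg adjustment, after a test on simulated data. It stands in for the authors' one-class SAM 3.0. A second fit added dye orientation. Genes named are the 2 genes, pathway and marker list members on at least 3 arrays, and for each of the 2 genes the 3 most alike. Some list members with fewer or no values are also named, as is dpr16, which passed under 2 settings. Members and lists were chosen with earlier results of these data known. Alternatives were the values as deposited, centring, local medians, spot rules and leaving out arrays. The number of arrays limits precision.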

Additional observations from a re-analysis of the deposited data

How the results depend on the processing

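Gs1 and Eaat2 were above 0 in 9 of 12 alternatives each, leaving aside 3 spot rules that could not change genes of 1 feature with all spots present. With the values as deposited their means were -0.50 and -0.36, and -0.33 and -0.18 with arrays centred as well. With only replicates 1 and 2 they were -0.07 and -0.10. With 1 array left out they ran from 0.16 to 0.68 and from 0.11 to 0.40. With local medians of 40 and 400 features, sizes chosen after seeing the data like the splits by orientation, Gs1 stood at 0.13 and 0.40 and Eaat2 at 0.19 and 0.15. In limma, 0 rows passed except under 2 settings, where 1 did, dpr16 both times: with the local median subtracted (adjusted p 0.0471) and with dye orientation as a covariate (adjusted p 0.0483). At an unadjusted p under 0.05 the split was 74 higher and 26 lower, 16 and 723 as deposited, 106 and 62 with arrays centred, and 36 and 94 without replicate 4. The limma orientation term, which is the drug effect if the deposited ratios were already turned, passed for 44 rows, 1.14%. It passed for 0 with arrays centred, where 211 positive and 290 negative terms had an unadjusted p under 0.05. Of the 17 pathway genes, 8 had a mean above 0, 2 as deposited, 3 with replicates 1 and 2 only, 13 with replicates 3 and 4 only, 7 with both orientations weighted equally (added after seeing the data), and from 2 to 12 with 1 array left out, fewest without replicate 4. The cause of these changes was not tested. The one-sample fit is already paired, since each ratio compares the treated and control pool of 1 set, and no further block could be added. Apart from the authors' signal to noise limit of 2, intensity minimum of 100 and background multiple of 2, the signal over background behind a value is unknown here.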

Other observations

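Some pathway genes had a value on too few arrays for the comparison. Gfat2, a hexosamine pathway enzyme, stood at -0.36 in replicate 1 and at -0.36 in replicate 2. The amino acid transporter gene mnd stood at -0.21 in replicate 2 and 1.07 in replicate 4. The glutamate receptor genes mGluR, Nmdar1 and Grik had 1 value each, at 0.30 in replicate 1, and -0.32 and 0.12 in replicate 4. KaiR1D and the transporter gene CG5535 also had 1 value each, at -2.93 and -2.03 in replicate 1, and GluRIIB had -2.07 in replicate 2. Ssadh, which acts in GABA breakdown, had 1.41 in replicate 4. The cystine/glutamate exchanger gene gb and the GABA transporter gene Gat had a feature but no value. Values of replicates 3 and 4 have the opposite sign as deposited.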
